A study of Mus musculus with 20 samples.

Results

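The genes described here carry mouse symbols made of Zfp and a number, the family name for zinc finger proteins, and were chosen by that name together with a mean of at least 5 CPM (counts of a gene scaled by the library total) over all 20 libraries. The files hold 46318 genes, of which 371 have such a symbol, and 221 of these 371 reached the level. Another 133 were counted but stayed below it, and 17 were listed at 0 in every library. Because the level chose the members, levels over all libraries are given as a description. The members nearest the limit were Zfp772, Zfp688 and Zfp938 at 5.12, 5.26 and 5.32 CPM, and the genes just outside it were Zfp54, Zfp605 and Zfp983 at 4.95, 4.82 and 4.64 CPM.

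The cells were macrophages grown from bone marrow of C57BL/6 female mice with a recombinant murine growth factor, which the labels spell M-DSF. They were kept for 24 h with the solvent DMSO, with DSHN at 50 µM, with GW3965 at 1 µM, or with DSHN and GW3965 together at these doses. Each of the 4 treatments had 5 biological replicates, and the labels do not say whether these came from separate mice, so p-values measure the spread between these cultures. GW3965 activates LXR, a nuclear receptor for oxysterols that turns on genes of cholesterol efflux. DSHN is described in the series as an agonist of NR0B2, an orphan receptor given there as an inhibitor of LXR. The study asked how each compound, and both together, change the transcripts of these cells.

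Most proteins named Zfp fold short stretches of their chain around zinc ions held by cysteines and histidines, and rows of such C2H2 fingers read DNA base by base. Many of them also carry a KRAB box, which recruits the corepressor Trim28 and, through it, the histone methyltransferase Setdb1 to silence retroelements and nearby genes. Others bind RNA, tag proteins with ubiquitin or SUMO, or act in splicing and on ribosomes. The name covers unrelated proteins too: Zfp36 (tristetraprolin) has CCCH fingers and speeds the decay of cytokine mRNAs in macrophages.

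The stretches below show the difference in finger type among the genes with the clearest changes. Each is the coding sequence of the first finger a pattern search found in the longest coding sequence of GENCODE M21 (GRCm38), 5′ to 3′, and the capitals mark the codons of the 4 zinc-binding residues. Zfp36 and Zfp710 had the falls with the smallest adjusted p under each compound alone, Zfp90 the largest rise with GW3965, and Zfp646 the largest fall with both compounds.
Zfp36, CCCH finger: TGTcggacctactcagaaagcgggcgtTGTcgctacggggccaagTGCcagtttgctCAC
Zfp710, C2H2 finger: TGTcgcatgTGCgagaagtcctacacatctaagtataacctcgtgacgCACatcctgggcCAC
Zfp90, C2H2 finger: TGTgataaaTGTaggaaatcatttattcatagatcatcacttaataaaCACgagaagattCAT
Zfp646, C2H2 finger: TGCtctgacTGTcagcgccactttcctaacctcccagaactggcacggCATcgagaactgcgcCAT
The search found 2 CCCH fingers in Zfp36, 11 C2H2 fingers in Zfp710, 13 in Zfp90 and 27 in Zfp646.

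For Zfp36 and Zfp710, the 250 bases before the transcript start in the RefSeq promoter table (GRCm38.p6) are shown on the strand of the gene. Capitals mark matches to the motifs listed at the end of the promoter description.
Zfp36, chr7:28379229-28379478, minus strand: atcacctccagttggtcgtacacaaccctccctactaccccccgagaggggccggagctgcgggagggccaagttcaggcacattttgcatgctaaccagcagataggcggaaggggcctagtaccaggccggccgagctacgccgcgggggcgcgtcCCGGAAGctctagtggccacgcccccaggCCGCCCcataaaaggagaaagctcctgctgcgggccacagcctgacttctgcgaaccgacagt
Zfp710, chr7:80024564-80024813, plus strand: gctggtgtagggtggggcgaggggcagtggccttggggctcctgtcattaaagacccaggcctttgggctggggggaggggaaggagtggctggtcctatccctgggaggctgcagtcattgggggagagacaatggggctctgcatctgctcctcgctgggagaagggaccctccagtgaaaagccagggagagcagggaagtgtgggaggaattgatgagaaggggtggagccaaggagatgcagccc
The Zfp36 stretch held 18 CpG dinucleotides, an ETS motif and a GC box, and the Zfp710 stretch held 2 CpG dinucleotides and no match to the listed motifs.

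Library totals ran from 16855029 to 23796561 counts, and the member with the least counts in any library still had 55. The slope of a library's deviation from the mean log2 CPM of each gene, taken on log2 exon length, was -0.12 to -0.09 in the 5 libraries with both compounds and 0.01 to 0.06 in the other 15, so long genes were counted lower and short genes higher in the combination. Mitochondrial features took 0.201% to 0.246% of the counts with both compounds, against 0.114% to 0.152% in the other libraries. The cause of these differences was not tested, and they touch every comparison with the combination. All 9 macrophage markers were expressed, with means of 131 to 11220 CPM, while T cell, B cell, mast cell, neutrophil, dendritic cell and erythroid markers each stayed under 1 CPM, both erythroid genes being listed at 0. Of the 3 fibroblast markers Dcn had a mean of 0.333 CPM, and the summed level of the list was 2041 to 2590 CPM for DMSO and 2173 to 2765 CPM for DSHN. For GW3965 it was 2300 to 2991 CPM and for the combination 1732 to 2104 CPM, and its part in the results was not tested. Reads were counted with no strand option in the command, per the file headers. Exons of 47 members share bases with another gene, over 20% of them in Zfp91 (42.3%), Zfp526 (31.2%), Zfp276 (29.0%), Zfp397 (27.9%) and Zfp740 (20.7%), so the counts of these 5 are uncertain.

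Most members were counted at low levels. The median member had a mean of 14.6 CPM, with a range of 5.12 to 316 CPM, 72 members lay under 10 CPM, 71 between 10 and 20, and 7 reached 100. Within a group the median coefficient of variation of a member was 6.45% for DMSO, 7.46% for DSHN, 6.74% for GW3965 and 7.00% for both. Per kilobase of exon, the scale on which levels can be compared between genes, Zfp36 led with 43.1 CPM per kb. It was followed by Zfp106, an RNA-binding protein, with 33.0, and by Zfp91, an E3 ubiquitin ligase, with 32.3 CPM per kb. Zfp706 (25.8), Zfp710 (23.9), Zfp703 (22.9), Zfp414 (19.1) and Zfp330 (18.2 CPM per kb) made up the rest of the top 8.

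All members together took between 0.496% and 0.576% of a library, and least in the combination. In the DMSO libraries their share of counts was 0.560% ± 0.0101 (SD, n = 5), and under DSHN it was 0.553% ± 0.00667. GW3965 libraries gave 0.541% ± 0.00715, and the combination gave 0.508% ± 0.0115. The 5 combination libraries (0.496% to 0.524%) lay below all the others, the GW3965 libraries (0.529% to 0.547%) lay below the DMSO libraries (0.548% to 0.576%), and the DSHN libraries overlapped both. The ratio to DMSO was 0.988 ± 0.021 with DSHN, 0.965 ± 0.022 with GW3965 and 0.906 ± 0.026 with both. Without the 100 genes with the most counts, the GW3965 libraries (0.698% to 0.709%) overlapped the DMSO libraries (0.703% to 0.737%) and the ratio was 0.985 ± 0.019, while the combination (0.648% to 0.679%, ratio 0.923 ± 0.023) still lay below all the others. The shares were not corrected for exon length, which is longer among the members than among other genes, as given with the exon length classes. With offsets for exon length the members' median log2 fold change from DMSO to both compounds was 0.05. Then 75 members were higher and 52 lower, beside 30.2% and 28.2% of all tested genes. In bulk RNA, fewer cells of a type and less RNA per cell cannot be told apart.

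**Figure D1:**
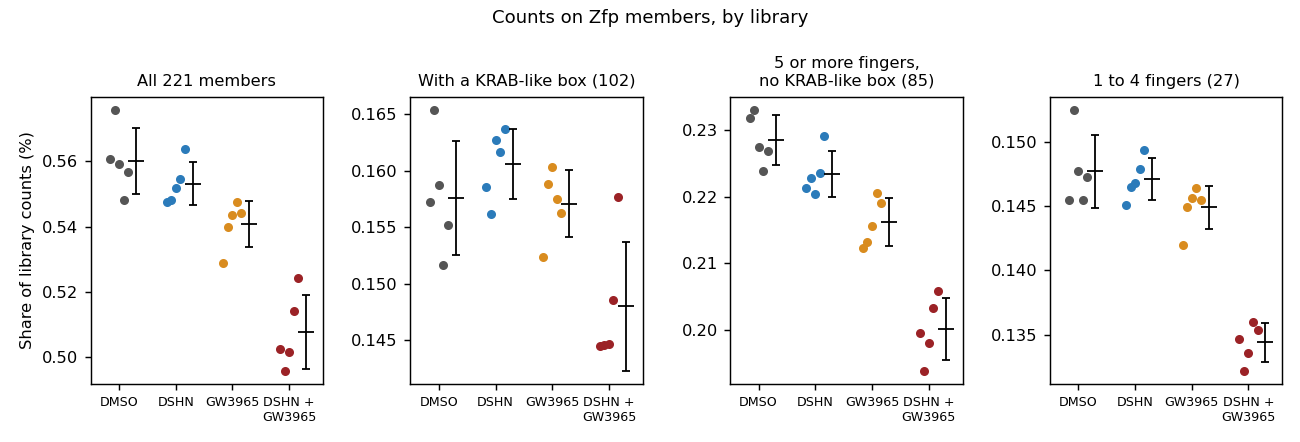
Share of each library's counts (%, y axis, not starting at 0) on all 221 members and on 3 classes of them, by treatment. Points are libraries and the bar beside them is mean ± SD (n = 5). The combination libraries lie lowest for all members, at 0.496% to 0.524%. Shares are not corrected for exon length.

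With DSHN alone more members rose than fell under TMM scaling, and slightly fewer rose than fell under total counts. Zfp36 fell, as did Zfp710, Zfp263 and Zfp281, a GC-rich DNA binder known from stem cells, while Zfp704, Zfp169, Zfp771 and Zfp12 rose. Relative to DMSO, 25 of the 221 members were called higher and 14 lower at an adjusted p under 0.05 (edgeR quasi-likelihood test, Benjamini-Hochberg over all tested genes), where 14.1% of the 13307 tested genes were called higher and 14.8% lower. The median log2 fold change of the members was 0.02, and that of all tested genes was 0.00. A change past 1.25-fold was seen in 5 members called higher and 1 called lower, Zfp36, beside 4.29% and 4.83% of all tested genes. The comparisons of each treatment with DMSO share the 5 DMSO libraries.

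Zfp36 (GRCm39, chromosome 7, 28076209 to 28078653, minus strand) stood at 95.0, 88.4, 89.4, 99.0 and 104 CPM in the DMSO libraries and at 63.5, 60.8, 61.6, 55.9 and 55.7 CPM with DSHN. The levels were 63.6, 65.3, 67.1, 66.1 and 70.5 CPM with GW3965 and 76.6, 79.5, 84.0, 92.3 and 82.2 CPM with both compounds. Each compound alone gave 5 libraries below every DMSO library, and the combination libraries lay above those of either compound and overlapped DMSO. From DMSO to both compounds the log2 fold change was -0.20 ± 0.05 SE, and -0.395 with offsets for exon length. The exons of Zfp36 sum to 1765 bases. The fall was the largest among the members with DSHN (log2 fold change -0.68 ± 0.05 SE, adjusted p = 2.42e-10).

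Zfp710 (GRCm39, chromosome 7, 79674562 to 79742499, plus strand), with 11 C2H2 fingers, fell with every treatment relative to DMSO. Its DMSO libraries had 200.5, 199.9, 202, 199.5 and 202 CPM, and its DSHN libraries 172, 173, 171, 174 and 169.6 CPM. With GW3965 it had 154, 149.7, 153, 165 and 152 CPM, and with both compounds 139, 131, 142, 143 and 132 CPM. None of the 4 groups overlapped another, with DMSO highest, then DSHN, then GW3965, then the combination. With length offsets the difference between the combination and GW3965 turned from -0.17 to 0.03 on the log2 scale. The log2 fold change with DSHN was -0.22 ± 0.03 SE (adjusted p = 4.62e-06).

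Zfp704 (GRCm39, chromosome 3, 9492070 to 9675145, minus strand) moved the other way. It had 33.0, 37.4, 33.3, 31.4 and 28.9 CPM with DMSO and 42.9, 49.6, 48.5, 53.3 and 50.0 CPM with DSHN. It had 54.7, 55.8, 55.0, 45.8 and 47.4 CPM under GW3965 and 43.8, 40.0, 45.1, 36.3 and 42.5 CPM with both. The libraries of each compound alone lay above all DMSO libraries, and the combination lay between, overlapping DMSO and DSHN. The rise with DSHN was the largest among the members (log2 fold change 0.57 ± 0.07 SE, adjusted p = 9.37e-07); 18.0% of its exon bases are shared with the gene model C030034L19Rik.

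Zfp169 (0.43 ± 0.09 SE, log2), Zfp771 (0.40 ± 0.09), Zfp455 (0.34 ± 0.10), Zfp113 (0.33 ± 0.10) and Zfp12 (0.30 ± 0.06) were the next largest rises with DSHN among called members whose DSHN and DMSO libraries did not overlap, a condition kept for the largest changes named in each comparison below, with adjusted p from 0.000479 to 0.0153. The next falls were Zfp946 (-0.23 ± 0.07), Zfp263 (-0.22 ± 0.04), Zfp281 (-0.20 ± 0.05) and Zfp382 (-0.18 ± 0.06). Of 27 members listed for a known function, 2 rose and 3 fell: Zfp622, a factor of large ribosomal subunit assembly (0.14 ± 0.05, adjusted p = 0.0242), Zfp746, the repressor of Ppargc1a known as PARIS (0.13 ± 0.05, adjusted p = 0.0339), and the falls of Zfp36, Zfp263 and Zfp281 given above. Beside this list, 14.1% of all tested genes were called higher and 14.8% lower. The call of Zfp455 was lost without DMSO replicate 1 or DSHN replicate 3 (adjusted p up to 0.0756). That of Zfp622 was lost without any of 4 libraries (up to 0.0969) and that of Zfp746 without any of 7 (up to 0.0957). Without DMSO replicate 4, DMSO replicate 5 or DSHN replicate 3, 16 members were called higher in place of 25. With total counts in place of TMM scaling, 18 were higher and 20 lower, and the calls of Zfp622 and Zfp746 were lost. That change of scaling moves all genes of a library alike, and its share of all tested genes called is not given. With offsets for exon length 29 were higher and 12 lower, where 15.1% and 14.8% of all tested genes were called, and among other genes with a mean of 5 CPM or more 17.2% were higher and 17.8% lower without offsets.

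With TMM scaling more members rose than fell with GW3965 alone, and with total counts more fell than rose. Zfp90 and Zfp704 rose by over 1.5-fold, with rises of Zfp467, which is known to favour adipocyte over osteoblast formation, Zfp358, Zfp189 and Zfp771, and falls of Zfp948, Zfp36, Zfp367 and Zfp710. Relative to DMSO 50 members were called higher and 27 lower, where 23.6% of all tested genes were called higher and 23.0% lower. Among other genes with a mean of 5 CPM or more, 27.7% were higher and 26.6% lower, beside 22.6% and 12.2% of the members. Past 1.25-fold there were 14 members higher and 5 lower, beside 9.19% and 10.8% of all tested genes. With total counts the split was 28 higher and 46 lower, and the median log2 fold change went from 0.02 to -0.03. The TMM factors left out there were 0.952 to 0.991 in the GW3965 libraries and 1.01 to 1.02 in the DMSO libraries. Leaving them out moves all genes of a library alike. The share of all tested genes called under total counts is not given here. With length offsets 57 were higher and 28 lower, where 24.5% and 23.3% of all tested genes were called.

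Zfp90 (GRCm39, chromosome 8, 107141929 to 107153575, plus strand), a C2H2 protein with 13 fingers, had 23.2, 22.7, 21.1, 21.7 and 21.3 CPM with DMSO and 24.4, 22.8, 25.02, 22.8 and 22.7 CPM with DSHN. It had 38.2, 34.8, 37.1, 37.6 and 37.4 CPM with GW3965 and 33.4, 32.0, 37.4, 34.8 and 35.8 CPM with both compounds. The groups fell into a low pair without GW3965 and a high pair with it, and within each pair the libraries overlapped. Its log2 fold change with GW3965 was 0.75 ± 0.05 SE (adjusted p = 1.26e-12), and the effect of adding DSHN to GW3965 did not pass the test (-0.09 ± 0.05, adjusted p = 0.084).

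Zfp948 (GRCm39, chromosome 17, 21786082 to 21809586, plus strand), a gene of the largest cluster of members, showed the largest fall with GW3965 (log2 fold change -0.57 ± 0.08 SE, adjusted p = 1.59e-06). DMSO libraries held 13.1, 13.0, 12.1, 14.9 and 13.1 CPM, and DSHN libraries 10.9, 10.5, 10.2, 11.1 and 12.7 CPM. Levels were 8.2, 8.35, 8.07, 10.1 and 9.62 CPM with GW3965 and 10.6, 10.1, 11.9, 11.9 and 12.4 CPM with both compounds. The GW3965 libraries lay below all DMSO and DSHN libraries, and the combination overlapped each of the other groups.

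The other large rises with GW3965 were Zfp704 (0.65 ± 0.07 SE, log2), Zfp467 (0.55 ± 0.07), Zfp358 (0.44 ± 0.07), Zfp189 (0.40 ± 0.09) and Zfp771 (0.37 ± 0.09). The other large falls were Zfp36 (-0.52 ± 0.05), Zfp367 (-0.49 ± 0.09), Zfp710 (-0.38 ± 0.03), Zfp334 (-0.33 ± 0.09) and Zfp382 (-0.31 ± 0.06). Adjusted p of these 10 ran from 2.35e-10 to 0.00344. Beside 23.6% of all tested genes called higher and 23.0% lower, 2 of 27 in the functional list rose and 6 fell with GW3965. The rises were Zfp622 (0.23 ± 0.05) and Zfp217, known as an oncogene in human breast cancer (0.14 ± 0.04). The falls, besides Zfp36, were Zfp451, a SUMO ligase (-0.24 ± 0.06), Zfp326, which couples transcript elongation with splicing (-0.23 ± 0.07), Zfp263 (-0.21 ± 0.04), Zfp638, a silencer of unintegrated retroviral DNA (-0.17 ± 0.05), and Zfp598, the ubiquitin ligase of collided ribosomes (-0.14 ± 0.05, adjusted p = 0.0155). The call of Zfp598 was lost without GW3965 replicate 3 (adjusted p = 0.0521), and that of Zfp217 was lost with total counts (0.09, log2).

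**Figure D2:**
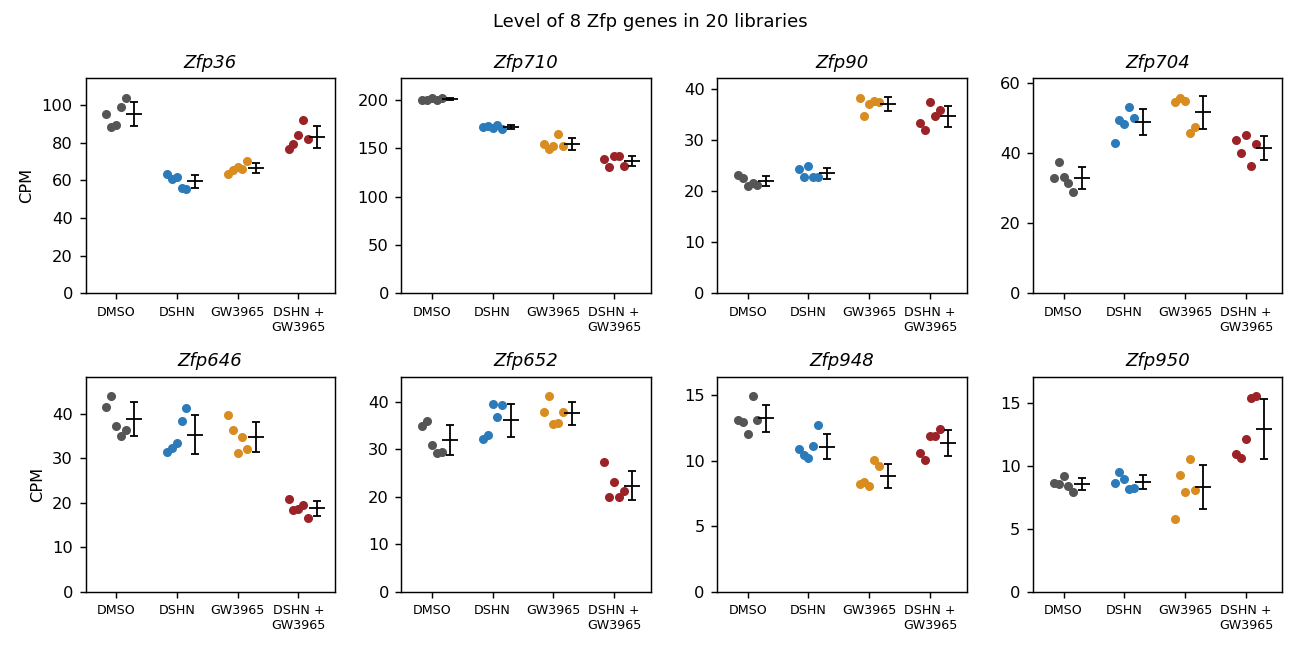
Level of 8 members (CPM scaled with TMM factors, y axis from 0) in the 20 libraries by treatment. Points are libraries and the bar beside them is mean ± SD (n = 5). Zfp36 is lowest with each compound alone, Zfp90 is high in both groups with GW3965, and Zfp646 and Zfp652 are lowest in all 5 combination libraries.

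Against DMSO, more members were lower than higher with both compounds under TMM scaling, and more were higher under offsets for exon length. Zfp646, Zfp469, known for keratoconus and brittle cornea in humans, Zfp407, Zfp526, Zfp397 and Zfp41 fell the most, and Zfp524, Zfp90, Zfp771, Zfp950, Zfp688 and Zfp949 rose the most. The calls were 44 higher and 82 lower, where 31.9% of all tested genes were called higher and 32.9% lower. Of the members 19.9% were higher and 37.1% lower, beside 35.9% and 37.9% of other genes with a mean of 5 CPM or more, and their median log2 fold change was -0.03. Past 1.5-fold there were 4 members higher and 17 lower, beside 6.69% and 9.72% of all tested genes. With offsets for exon length, described with the exon length classes, 75 were higher and 52 lower, where 30.2% and 28.2% of all tested genes were called. Past 1.5-fold 7 members were then higher and 5 lower, beside 693 and 887 of the 13307 tested genes.

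Zfp646 (GRCm39, chromosome 7, 127476074 to 127485168, plus strand), with 27 fingers, stood at 41.5, 43.9, 37.3, 35.0 and 36.3 CPM with DMSO and 31.3, 32.3, 33.5, 38.5 and 41.2 CPM with DSHN. Its levels were 39.6, 36.4, 31.1, 34.7 and 32.1 CPM with GW3965 and 20.9, 18.3, 18.5, 19.5 and 16.5 CPM with both compounds. All combination libraries lay below the lowest of the other 15, and those 3 groups overlapped each other. The log2 fold change from DMSO was -1.05 ± 0.08 SE (adjusted p = 3.18e-11), and -0.84 with length offsets.

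The other large falls from DMSO were Zfp469 (-1.03 ± 0.09 SE, log2), Zfp407 (-0.89 ± 0.07), Zfp526 (-0.88 ± 0.10), Zfp397 (-0.81 ± 0.08) and Zfp41 (-0.76 ± 0.07), with adjusted p from 6.71e-12 to 4e-08. Summed exon lengths of the 5 ran from 6548 bases for Zfp41 to 35962 for Zfp407. With length offsets the falls were -0.80 for Zfp469, -0.82 for Zfp407 and -0.68 for Zfp526, and Zfp397 and Zfp41 kept their direction and call. The large rises were Zfp524 (0.71 ± 0.10), Zfp90 (0.66 ± 0.05), Zfp771 (0.60 ± 0.09), Zfp950 (0.59 ± 0.12), Zfp688 (0.54 ± 0.10) and Zfp949 (0.52 ± 0.08), with adjusted p from 7.5e-12 to 7.61e-05. These rises kept their direction and call with length offsets, but sizes changed. Zfp41 and Zfp524 belong to the class with 1 to 4 C2H2 fingers, where values with offsets ran from -0.56 to 0.60. The largest rise of any member with offsets was 0.85, in the KRAB-like class described below.

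Of the 27 members listed for a known function, 2 were higher and 18 lower than with DMSO. Among all tested genes 31.9% were higher and 32.9% lower. Zfp622 rose (0.41 ± 0.05 SE, log2), as did Zfp830, which is associated with splicing (0.24 ± 0.05). Among those that fell were Zfp644, which acts with the methyltransferases Ehmt1 and Ehmt2 (-0.72 ± 0.06), Zfp592 (-0.39 ± 0.05) and Zfp687 (-0.26 ± 0.05), which share a complex, and Zfp335, known from histone H3 methyltransferase complexes (-0.61 ± 0.06). Zfp809, which brings Trim28 to retroviral DNA (-0.49 ± 0.09), Zfp638 (-0.52 ± 0.05) and Zfp445, known from imprint control (-0.36 ± 0.04), fell as well. Zfp318, known for letting B cells make IgD (-0.65 ± 0.06), Zfp292 (-0.59 ± 0.06), Zfp451 (-0.61 ± 0.06), Zfp106 (-0.40 ± 0.04), Zfp148 (-0.39 ± 0.04), Zfp143, an activator bound at promoters (-0.32 ± 0.07), Zfp281 (-0.26 ± 0.05), Zfp598 (-0.25 ± 0.05), Zfp36 (-0.20 ± 0.05), Zfp263 (-0.16 ± 0.04) and Zfp207, a kinetochore protein (-0.15 ± 0.03), made up the rest. With length offsets 8 of the 27 were higher and 15 lower, beside 30.2% and 28.2% of all tested genes. Zfp207 turned from -0.15 to 0.09, and Zfp263 and Zfp687 no longer passed the test.

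Members that did not pass the test against DMSO in the combination include Zfp384, with 51.9 ± 1.23 CPM (SD, n = 5) with DMSO and 52.2 ± 1.5 CPM with both compounds. Zfp384 was called in none of the 6 comparisons, its log2 fold changes lying within -0.01 and 0.01, each with an SE of 0.04 to 0.05. Zfp410, known to activate the remodeller gene Chd4, had 23.7 ± 0.933 and 25.6 ± 1.7 CPM (0.11 ± 0.05 SE, adjusted p = 0.0642). Zfp91 had 182 ± 7.37 and 184 ± 4.37 CPM, and Zfp346, a double-stranded RNA binder, 11.4 ± 0.612 and 11.9 ± 0.528 CPM. With length offsets Zfp410 (0.27, adjusted p = 0.000101) and Zfp91 (0.18, adjusted p = 0.000213) were called higher. Over all 6 comparisons 51 of the 221 members were never called, where 17.0% of all tested genes were not.

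Among the members with the highest levels per kilobase, Zfp703 (0.14 ± 0.04 SE, log2), Zfp330, a nucleolar protein (0.17 ± 0.07), Zfp706 (0.19 ± 0.04) and Zfp414 (0.30 ± 0.06) rose from DMSO to the combination. The exons of Zfp330 and Zfp414 sum to 1663 and 1209 bases. With length offsets Zfp330 turned to -0.05 and Zfp414 fell short of the test at 0.00. The call of Zfp330 was also lost without any of 6 libraries (adjusted p up to 0.106).

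Adding DSHN to GW3965 lowered 91 members and raised 27 under TMM scaling, where 29.5% of all tested genes were called lower and 28.3% higher. Zfp646, Zfp526, Zfp407, Zfp469, Zfp397 and Zfp652, whose human counterpart is a repressor, fell the most, and Zfp950, Zfp688, Zfp408, Zfp949, Zfp787 and Zfp330 rose the most among members whose libraries did not overlap. The median log2 fold change of the members was -0.09, that of other genes with a mean of 5 CPM or more 0.00, and 35.2% of those other genes were lower and 32.9% higher. With total counts only, which moves all genes of a library alike, 38 were higher and 68 lower. The share of all tested genes under that scaling is not given. With length offsets 53 members were higher and 44 lower, the median was -0.02, and 23.8% and 23.5% of all tested genes were called.

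Zfp652 (GRCm39, chromosome 11, 95639893 to 95655541, plus strand) had 34.8, 35.9, 30.8, 29.2 and 29.4 CPM with DMSO and 32.1, 32.9, 39.5, 36.9 and 39.3 CPM with DSHN. With GW3965 it had 37.8, 41.1, 35.4, 35.5 and 37.9 CPM and with both compounds 27.4, 20.0, 23.0, 20.0 and 21.3 CPM. The 5 combination libraries lay below all 15 others. It has summed exons of 2667 bases, and its log2 fold change against GW3965 was -0.74 ± 0.08 SE (adjusted p = 1.97e-08), and -0.81 with length offsets.

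Zfp950 (GRCm39, chromosome 19, 61042278 to 61129297, minus strand), a member with a KRAB-like box, was the largest rise. Its DMSO and DSHN libraries held 8.65, 8.57, 9.15, 8.4 and 7.91 CPM and 8.59, 9.53, 8.97, 8.12 and 8.23 CPM. Its GW3965 libraries held 5.79, 9.24, 7.92, 10.5 and 8.09 CPM and its combination libraries 10.9, 10.6, 12.1, 15.3 and 15.5 CPM. The combination lay above all other libraries, from 10.6 CPM against a highest value of 10.5 CPM with GW3965. The log2 fold change against GW3965 was 0.62 ± 0.12 SE (adjusted p = 5.83e-05), and 0.89 with length offsets, its exons summing to 12890 bases.

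Zfp526 (-0.87 ± 0.10 SE, log2), Zfp407 (-0.78 ± 0.07), Zfp469 (-0.78 ± 0.09) and Zfp397 (-0.75 ± 0.08) were the other large falls against GW3965, after Zfp646 (-0.89 ± 0.08). The rises of Zfp688 (0.42 ± 0.10), Zfp408, tied to human retinal disease (0.39 ± 0.09), Zfp949 (0.36 ± 0.08), Zfp787 (0.33 ± 0.06) and Zfp330 (0.33 ± 0.07) had adjusted p from 8.59e-05 to 0.000427. Beside 28.3% of all tested genes called higher and 29.5% lower, 4 of 27 in the functional list were higher and 16 lower. The higher ones were Zfp36 (0.32 ± 0.05), Zfp326 (0.33 ± 0.07), Zfp830 (0.21 ± 0.05) and Zfp622 (0.18 ± 0.05). Zfp644 (-0.67 ± 0.06), Zfp292 (-0.61 ± 0.06), Zfp318 (-0.60 ± 0.06) and Zfp335 (-0.48 ± 0.06) led the lower ones. With length offsets 9 of the 27 were higher and 10 lower, beside 23.8% and 23.5% of all tested genes. Zfp207 turned from -0.09 to 0.15, Zfp217 from -0.12 to 0.11 and Zfp710 from -0.17 to 0.03. Zfp281, Zfp445, Zfp451, Zfp687 and Zfp330 (0.13) no longer passed the test. The rise of Zfp36 was 0.13 and the fall of Zfp469 -0.52 with these offsets. With total counts the calls of Zfp207 and Zfp217 were lost. The calls of Zfp143 and Zfp207 were each lost without either of 2 libraries (adjusted p up to 0.0557 and 0.0567).

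Adding GW3965 to DSHN lowered 81 members and raised 26 under TMM scaling, where 29.5% of all tested genes were called lower and 28.6% higher, and 35.1% and 33.0% of other genes with a mean of 5 CPM or more. With length offsets the calls were 48 and 48, where 23.5% of all tested genes were higher and 22.9% lower. The comparisons with the combination share its 5 libraries. The falls of Zfp646 (-0.91 ± 0.08 SE, log2), Zfp526 (-0.87 ± 0.10), Zfp407 (-0.83 ± 0.07), Zfp397 (-0.81 ± 0.08), Zfp469 (-0.80 ± 0.09) and Zfp652 (-0.69 ± 0.08) were the largest. Among members whose libraries did not overlap, the largest rises were Zfp950 (0.56 ± 0.12), Zfp90 (0.56 ± 0.05), Zfp36 (0.48 ± 0.05), Zfp688 (0.47 ± 0.10), Zfp408 (0.47 ± 0.09) and Zfp511 (0.38 ± 0.10), and the last did not pass the test with length offsets. In the functional list 4 of 27 were higher and 16 lower, and with length offsets 9 and 12. Of these calls, those of Zfp143, Zfp207, Zfp326, Zfp598 and Zfp746 were lost when single libraries were left out (adjusted p up to 0.127). The change of Zfp36 was 0.30 with length offsets.

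**Figure D3:**
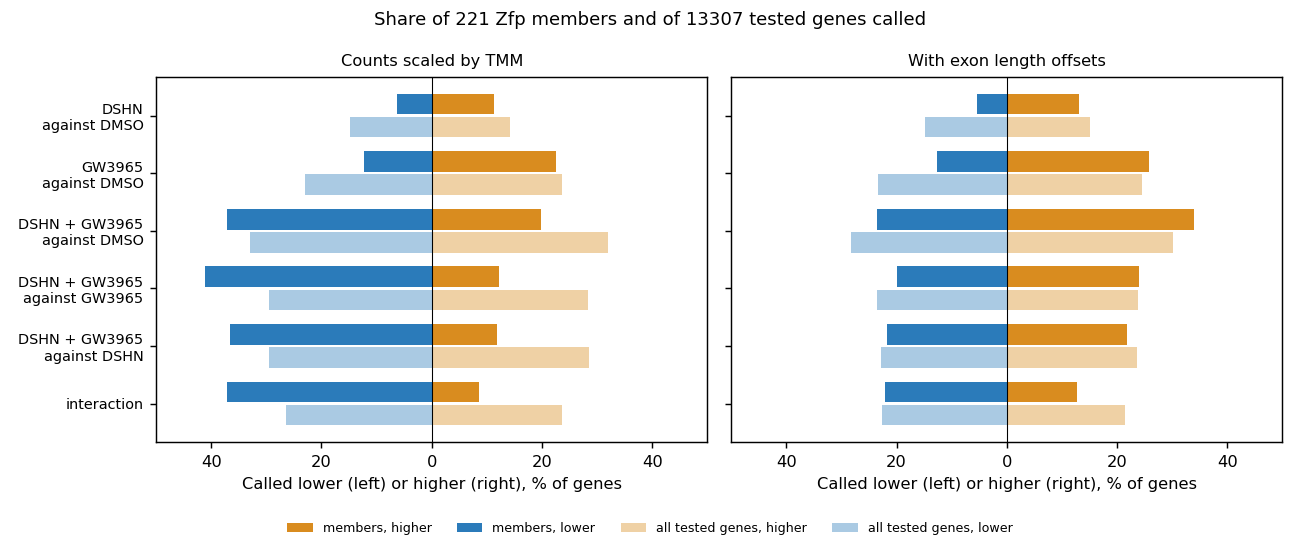
Share of the 221 members (solid bars) and of the 13307 tested genes (pale bars) called lower (left) or higher (right), in % of genes, for 6 comparisons, with TMM scaling and with exon length offsets. With TMM scaling 41.2% of the members were lower and 12.2% higher when DSHN was added to GW3965, and with offsets 19.9% and 24.0%.

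The interaction compares the effect of DSHN in the presence of GW3965 with its effect in its absence. It was called positive in 19 members and negative in 82, where 23.7% of all tested genes were positive and 26.5% negative, as were 28.3% and 31.7% of other genes with a mean of 5 CPM or more, and the median of the members was -0.14. With total counts only, 27 were positive and 58 negative, with no share of all tested genes given for that scaling. With length offsets 28 were positive and 49 negative, where 21.5% and 22.6% of all tested genes were called. Zfp36 had the largest positive value (0.99 ± 0.07 SE, log2, adjusted p = 1.63e-10): DSHN lowered it without GW3965 and raised it with GW3965. Zfp948 (0.61 ± 0.11), Zfp950 (0.59 ± 0.17) and Zfp367 (0.54 ± 0.12) followed. The largest negative values were Zfp652 (-0.91 ± 0.11), Zfp704 (-0.88 ± 0.10), Zfp526 (-0.85 ± 0.14) and Zfp646 (-0.75 ± 0.11). Zfp704 rose with each compound alone and lay lower with both than with GW3965. All 8 kept their sign and their call with length offsets, at 0.82 for Zfp36, 0.69 for Zfp948, -0.61 for Zfp704 and -0.99 for Zfp652. In the functional list 4 of 27 were positive and 14 negative, and with length offsets 7 and 8.

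Exon length went with the direction of change in the combination, among the members as among other genes. Members have long exons, with a median of 4941 bases (quartiles 3665 and 7655), against 3854 (2339 and 6304) for the 9781 other tested genes with a mean of 5 CPM or more. When DSHN was added to GW3965, the median log2 fold change was 0.31 for the 6 members under 2 kb, 0.01 for 68 members of 2 to 4 kb, -0.08 for 55 of 4 to 6 kb, -0.26 for 42 of 6 to 8 kb and -0.22 for 50 of 8 kb or more. Other genes of these classes had medians of 0.28, 0.06, -0.10, -0.18 and -0.30. Of the members of 6 to 8 kb 66.7% were lower, beside 59.1% of other genes, and of those of 8 kb or more 62.0%, beside 71.7%. Among other genes of 5 to 50 CPM, nearer the level of most members, 47.4% and 62.0% were lower in these classes. In the class of 2 to 4 kb 19.1% of the members were higher, beside 36.5% of other genes and 34.7% of those of 5 to 50 CPM.

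The same classes in the comparison of the combination with DMSO gave member medians of 0.33, 0.06, -0.07, -0.21 and -0.17, and other-gene medians of 0.33, 0.06, -0.11, -0.20 and -0.30. With each compound alone the classes differed less. Members of 2 to 4 kb had a median of 0.09 with GW3965, beside 0.00 for other genes, and of 0.05 with DSHN, and the remaining class medians of members lay between -0.02 and 0.03. In a fit with offsets per library from a spline on log2 exon length, the members' medians for DSHN added to GW3965 were 0.09, -0.03, 0.01, -0.07 and 0.05 from the shortest class to the longest, and those of other genes 0.02, 0.01, -0.01, 0.01 and -0.05. The offsets remove any change that goes with exon length over all genes, whatever its source.

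**Figure D4:**
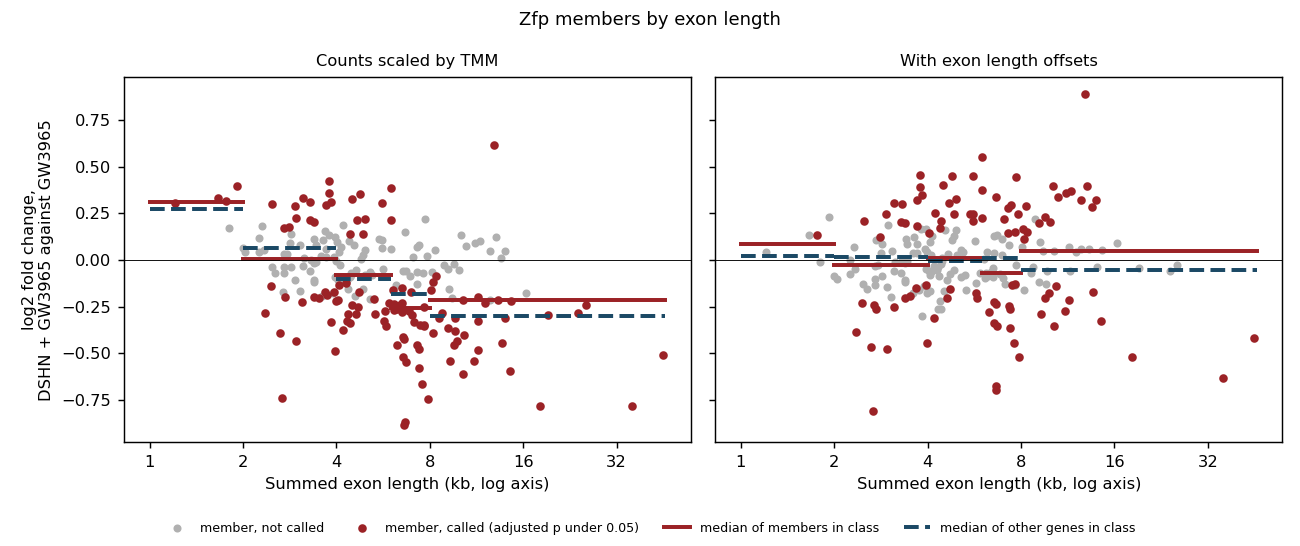
Log2 fold change of each member when DSHN was added to GW3965 (y axis) against summed exon length (kb, log axis), with TMM scaling (left) and with length offsets (right). Red points were called, grey points were not, and lines give class medians of members and of other genes, which fall from 0.31 and 0.28 under 2 kb to -0.22 and -0.30 at 8 kb or more on the left.

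The members were sorted by the fingers and KRAB-like boxes that pattern searches found in their translated coding sequences, which can miss divergent copies. A KRAB-like box was found in 102 members. Of the members with no match for the box, 85 had 5 or more C2H2 fingers and 27 had 1 to 4. Another 5 had neither such a box nor a C2H2 finger by the pattern (Zfp36, Zfp330, Zfp503, Zfp703 and Zfp839). Members with no match, Zfp90 among them, may still carry a KRAB box, so the finger-rich class is not one shown to lack it. No coding sequence was matched for Zfp267 and Zfp469. The median number of C2H2 fingers was 10 and the highest 36, in Zfp142.

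With GW3965 24 of the 102 were higher and 9 lower (23.5% and 8.82%, median log2 fold change 0.07). Of the 85 finger-rich members 17 were higher and 11 lower (20.0% and 12.9%, median 0.01). All tested genes gave 23.6% higher and 23.0% lower. With length offsets the counts were 28 and 7, and 20 and 13, beside 24.5% and 23.3% of all tested genes. With both compounds against DMSO 17 KRAB-like members were higher and 30 lower (16.7% and 29.4%, median -0.02). Finger-rich ones gave 14 and 39 (16.5% and 45.9%, median -0.12), and the 27 with 1 to 4 fingers 10 and 10 (median 0.06). Among all tested genes 31.9% were higher and 32.9% lower. With length offsets the KRAB-like members turned to 38 higher and 14 lower, and the finger-rich ones were 24 and 28. All tested genes then gave 30.2% higher and 28.2% lower. All 5 combination libraries lay below the other 15 in 22 of the 85 finger-rich members and in 8 of the 102 KRAB-like ones, beside 19.2% of other genes with a mean of 5 CPM or more. Over all members this was so for 38 (17.2%), and the combination libraries lay above the other 15 for 9 (4.07%), beside 15.3% of other genes. Restricted to exons of 2 to 6 kb, the medians against DMSO were 0.00 for the KRAB-like and 0.04 for the finger-rich members, and the order of the 2 medians was turned. In that range 24.6% of the KRAB-like members were lower and 21.3% higher, and 26.7% and 20.0% of the finger-rich ones. Against GW3965 the medians in that range were -0.04 and -0.09, with the order of the classes kept. The classes were compared by their medians, with no test of the difference.

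Counts on the KRAB-like members took 0.158% ± 0.00507 (SD, n = 5) of a DMSO library and 0.161% ± 0.00311 of a DSHN library. The shares were 0.157% ± 0.00300 in GW3965 libraries and 0.148% ± 0.00568 in the combination. One combination library, replicate 5 at 0.158%, lay within the range of the other groups. For the finger-rich members the shares were 0.229% ± 0.00376, 0.223% ± 0.00344, 0.216% ± 0.00357 and 0.200% ± 0.00465, and the combination libraries lay below all others. For members with 1 to 4 fingers they were 0.148% ± 0.00287, 0.147% ± 0.00161, 0.145% ± 0.00170 and 0.134% ± 0.00151, again with the combination below all others. None of these shares was corrected for exon length.

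**Figure D5:**
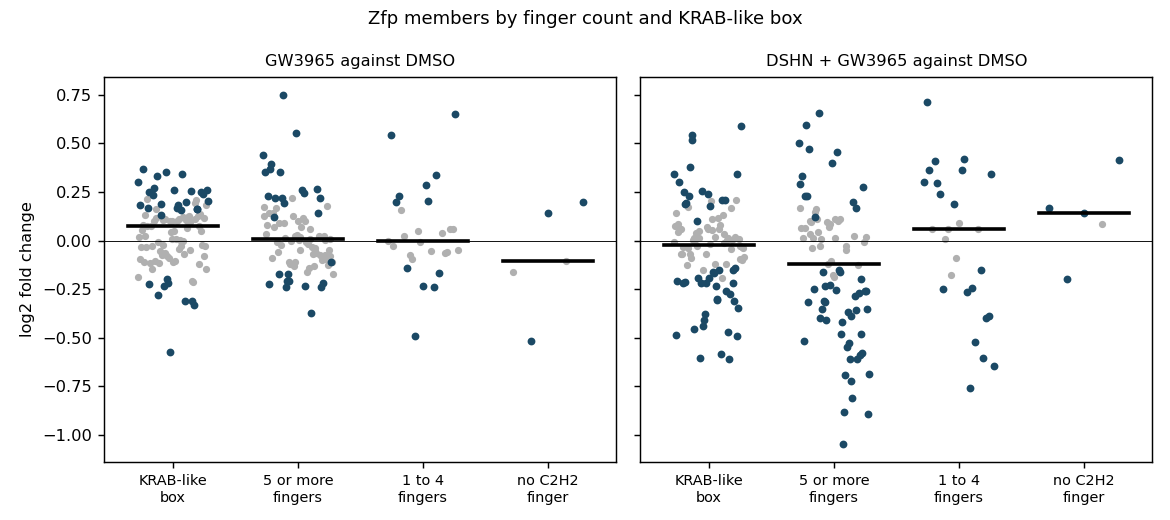
Log2 fold change (y axis) of the members by class, for GW3965 against DMSO (left) and both compounds against DMSO (right). Dark points were called, grey points were not, and the bar is the class median, 0.07 for KRAB-like members on the left and -0.12 for finger-rich members on the right.

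Many KRAB-type genes sit in tandem clusters that arose by duplication. With Zfp genes joined where the gap was at most 500 kb and clusters kept with at least 5 members, 82 members lay in 10 clusters and 139 outside them. Chromosome 7 carried 52 members, chromosome 17 31, and chromosomes 8 and 13 17 each. The largest cluster spans chromosome 17, 21229203 to 23818729 (GRCm39), with 17 members among 23 Zfp genes, 16 of them with a KRAB-like box. When DSHN was added to GW3965, 1 of its members was higher and 5 lower, with a median log2 fold change of 0.01. In the cluster on chromosome 7, 29467977 to 29869225, 6 of 8 members were lower and 1 higher. In the one on chromosome 7, 126832233 to 127485168, which holds Zfp646, Zfp688 and Zfp771, 2 of 9 were higher and 1 lower. Over all clusters 40.2% of the members were lower and 9.76% higher, beside 41.7% and 13.7% of the members outside. Among all tested genes 29.5% were lower and 28.3% higher.

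Other zinc finger families were counted by the same fit. Of 31 Zbtb genes with a mean of 5 CPM or more 5 were higher and 13 lower when DSHN was added to GW3965 (median log2 fold change -0.09), of 14 Zc3h genes, the CCCH type to which Zfp36 is akin, 1 was higher and 10 lower (-0.23), and of 7 Zkscan genes 4 were lower (-0.21). Of 11 Klf genes 5 were higher and 2 lower (0.12). Of all tested genes 28.3% were higher and 29.5% lower. With length offsets the counts were 5 and 9 for Zbtb, 2 and 6 for Zc3h and 7 and 0 for Klf genes, with 2 Zkscan genes lower. The median of the Zbtb genes turned to 0.03, and 23.8% of all tested genes were higher and 23.5% lower. The interaction was positive in 7 of the 11 Klf genes and negative in 1, where 23.7% of all tested genes were positive and 26.5% negative. With GW3965 alone 6 of 11 Klf genes and 6 of 14 Zc3h genes were lower, and 1 of each was higher. All tested genes gave 23.0% lower and 23.6% higher there.

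The partners through which KRAB proteins silence DNA were measured as a list of 30 genes, all tested. With DSHN 3 were higher and 10 lower, where 14.1% of all tested genes were called higher and 14.8% lower. With GW3965 4 were higher and 16 lower, beside 23.6% and 23.0% of all tested genes. Both compounds against DMSO gave 4 and 18, beside 31.9% and 32.9%. DSHN added to GW3965 gave 6 and 16, beside 28.3% and 29.5%. With length offsets the counts were 3 and 8, 4 and 13, 6 and 16, and 9 and 11 in this order. All tested genes then gave 15.1% and 14.8%, 24.5% and 23.3%, 30.2% and 28.2%, and 23.8% and 23.5%. Trim28, the corepressor itself, had 191 ± 6.28 CPM (SD, n = 5) with DMSO and 187 ± 7.35 CPM with both, a difference that did not pass the test; it was singled out after its values were seen, and it fell with DSHN (-0.09 ± 0.03 SE, log2) and with GW3965 (-0.09 ± 0.03), neither passing the test with length offsets (adjusted p = 0.0703 and 0.053). Dnmt1, the maintenance DNA methyltransferase, fell with every treatment, from 289.5 ± 13.1 CPM with DMSO to 133 ± 8.71 CPM with both (log2 fold change -1.12 ± 0.05 SE). Uhrf1, its recruiting partner, fell with DSHN (-0.46 ± 0.08) and with GW3965 (-0.89 ± 0.08). Cbx5, a heterochromatin protein, fell with GW3965 (-0.52 ± 0.05), as did the methyltransferase gene Suv39h1 (-0.34 ± 0.04). In the combination against GW3965 the remodeller gene Atrx (-0.61 ± 0.04), Trim33 (-0.54 ± 0.04) and Dnmt3a (-0.36 ± 0.03) fell, by smaller log2 fold changes of -0.35, -0.29 and -0.14 with length offsets. With DSHN, Chd3 rose (0.15 ± 0.03) and Pphln1 fell (-0.17 ± 0.04). Against DMSO Morc2a fell in the combination (-0.65 ± 0.05), and against DSHN Resf1 did (-0.44 ± 0.04, or -0.26 with length offsets). The 4 genes higher with both compounds than with DMSO were Mphosph8 (0.47 ± 0.06), Cbx1 (0.20 ± 0.05), Hdac2 (0.19 ± 0.05) and Chd3 (0.09 ± 0.03). Setdb1 was among the 18 lower ones (-0.28 ± 0.05, or -0.16 with length offsets).

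The promoter table held 221 start sites for 182 of the members, among 32851 in all. In the 250 bases before them, searched on both strands, the GC box GGGCGG was found in 45.7% of the members' stretches and 32.7% of all, the ETS motif CCGGAAG in 17.6% and 6.91%, the NRF1 motif in 3.17% and 0.782%, and the cAMP response motif TGACGTCA in 3.62% and 1.55%. The TATA box TATAAA was found in 5.43% of the members' stretches and 12.4% of all, the AP-1 motif TGACTCA in 2.71% and 4.46%, and the E box CACGTG in 6.33% and 6.02%. A serum response motif and a direct-repeat LXR motif, each a single spelling, were in none of the 221, beside 0.0609% and 0.0152% of all stretches. The median stretch had 55.2% G and C and 13 CpG dinucleotides among the members, and 52.4% and 6 among all. A match is a run of letters and not a bound site, and motif shares move with base composition. The members were chosen for a mean of at least 5 CPM, while the stretches of all genes were taken at any level. The part of this choice in the differences was not tested.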

How the data were processed

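Gene counts of 20 libraries were deposited by the authors as raw counts per gene, made per the file headers with featureCounts v2.0.0 from STAR alignments on a GRCm39 RefSeq annotation, with no strand, multimapping or overlap option in the command. Reads shared between near-identical Zfp genes may therefore be lost or split. Libraries were made with a stranded mRNA kit, per the labels. Gene IDs were turned into symbols with a RefSeq table, which named 44749 of 46318 genes. The rest held 0.474% of the counts.

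Library totals ran from 16855029 to 23796561. Genes were filtered with filterByExpr, scaled with TMM factors and tested with edgeR 4.0.16 (quasi-likelihood, R 4.3.3) in 1 fit of the 4 treatments, with Benjamini-Hochberg adjustment over 13307 genes in each of 6 comparisons. The script was tested on simulated data. CPM per library used the TMM factors, except for the choice of members and the shares, which used library totals. All values are on these scales unless length offsets are named, which were fitted per library as a spline (5 degrees of freedom) of log2 exon length.

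Members and gene lists were chosen with earlier results of these data known. Named members were those with the 8 highest CPM per kilobase, the 6 largest called rises and falls per comparison without overlap between the libraries compared (4 for the interaction), 27 listed for a known function, those at the edge of the level, and, of the cofactors, the 4 with the smallest adjusted p per comparison. Trim28, Setdb1 and the cofactors higher with both compounds than with DMSO were added after their values were seen. Fingers and KRAB-like boxes were searched in GENCODE M21 coding sequences translated with Biopython 1.88, and promoters came from RefSeq (GRCm38.p6), with no coordinates carried between builds.

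Alternatives were other scalings, other filters, DESeq2 1.42.0, limma voom 3.58.1, a block for the replicate number, offsets for exon length and genomic span, only the groups compared, and each library left out.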

Additional observations from a re-analysis of the deposited data

Results flagged for a closer look

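The effect of DSHN differed with and without GW3965 in 28 named members by the interaction term of the edgeR fit at an adjusted p under 0.05 (n = 5 a group). On the log2 scale the effect of DSHN was more positive with GW3965 for Zfp36 (0.991), Zfp948 (0.608), Zfp950 (0.594), Zfp367 (0.537), Zfp330 (0.459), Zfp326 (0.394), Zfp830 (0.282), Zfp414 (0.27), Zfp263 (0.265) and Zfp706 (0.138). It was more negative for Zfp652 (-0.914), Zfp704 (-0.882), Zfp526 (-0.851), Zfp646 (-0.747), Zfp292 (-0.62), Zfp644 (-0.6), Zfp106 (-0.509), Zfp318 (-0.484), Zfp148 (-0.443), Zfp335 (-0.436), Zfp592 (-0.363) and Zfp809 (-0.318). The remaining negative values were Zfp638 (-0.242), Zfp445 (-0.24), Zfp451 (-0.24), Zfp217 (-0.213), Zfp746 (-0.196) and Zfp687 (-0.178). The call of Zfp687 was lost without any one of 17 libraries (adjusted p up to 0.127) and that of Zfp809 without any one of 11 (up to 0.104). Those of Zfp451 (without DSHN replicate 5, 0.0504), Zfp706 (without DMSO replicate 5, 0.0558) and Zfp746 (without both-compound replicate 1, 0.0503) each rested on 1 library. With length offsets Zfp414, Zfp445, Zfp451, Zfp638 and Zfp746 were no longer called, nor was Zfp217 at 0.006.

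A single library lay far from the other 4 of its group, by Dixon's criterion, in 14 of 244 groups of 5 tested over 61 named members. Chance flags about 1 group in 20. With DMSO these were Zfp207 in replicate 2, highest at 158.1 CPM, Zfp445 in replicate 5, lowest at 76.76 CPM, and Zfp644 in replicate 3, lowest at 41.91 CPM. With DSHN they were Zfp263 in replicate 5, highest at 50.29 CPM, Zfp367 in replicate 1, highest at 43.9 CPM, and Zfp830 in replicate 4, lowest at 16.68 CPM. With GW3965 they were Zfp526 (18.65 CPM) and Zfp592 (48.92 CPM), both highest in replicate 1, Zfp12 in replicate 3, lowest at 15.48 CPM, and Zfp524 in replicate 4, lowest at 8.378 CPM. With both compounds they were Zfp217 (66.57 CPM) and Zfp451 (22.23 CPM), both highest in replicate 5, Zfp687 in replicate 1, highest at 21.99 CPM, and Zfp746 in replicate 1, lowest at 24.29 CPM.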

How the results depend on the processing

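In comparisons with the combination, the counts and medians of members moved most with exon length offsets. These gave 75 higher, 52 lower and a median log2 fold change of 0.046 against DMSO for both compounds, 53, 44 and -0.018 against GW3965, 48, 48 and 0.006 against DSHN, and 49 negative interactions with a median of -0.049. With the replicate block and length offsets together the values were 74, 53 and 0.047, then 53, 46 and -0.019, then 48, 47 and 0.006, and 48 and -0.044. Offsets for length and span gave medians of -0.065 against GW3965 and -0.035 against DSHN. Total counts only gave 28 higher, 46 lower and a median of -0.032 with GW3965, -0.04 for DSHN added to GW3965 and -0.061 for the interaction. Total counts move all genes of a library alike, so these shifts are not particular to the members. The cause of the shifts was not tested.

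Replicate numbers were not taken as pairs, since 10 of 30 same-numbered pairs had a correlation above 0.1 where all would be needed (other pairs -0.24 to 0.2401). Of the 15 pairs without DSHN alone all were positive (0.0268 to 0.247) and 9 above 0.1, while 3 of 15 with DSHN alone were positive (-0.205 to 0.147), and 2 of 20 libraries correlated best with their own number in all 3 other groups. The replicate block alone gave 26 higher and 13 lower with DSHN, 52 and 26 with GW3965, and 27 and 88 for DSHN added to GW3965. Of the named members only the call of Zfp326 against DSHN and the interaction of Zfp687 were lost under it.

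Leaving out each library in turn gave 16 to 30 higher and 10 to 17 lower with DSHN, 38 to 54 and 24 to 32 with GW3965, 36 to 46 and 75 to 82 with both compounds, 24 to 29 and 77 to 91 against GW3965, 25 to 30 and 74 to 82 against DSHN, and 17 to 21 and 66 to 85 for the interaction.

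Signs turned for 7 named members. Against DMSO for both compounds, Zfp207 was 0.094 with length offsets, also with the block, Zfp330 -0.048 with both and -0.059 with length and span, Zfp414 -0.016 with length and span, and Zfp687 0.001 with length offsets and with the block. Against GW3965, Zfp207 was 0.149 (length and span 0.038), Zfp217 0.113 (0.067), Zfp710 0.027 (0.067) and Zfp687 0.06, or 0.058 with the block. Against DSHN, Zfp207 was 0.15 (0.047), Zfp414 -0.002 (-0.023) and Zfp687 0.03, or 0.028 with the block. For the interaction, Zfp217 was 0.006, Zfp687 0.089 or 0.085 with the block, and Zfp638 0.056 with length and span. Of the other values of named members, 1729 kept direction and call and 81 lost the call. With total counts these included Zfp703 with GW3965, Zfp207 and Zfp598 against DSHN, and the interactions of Zfp217, Zfp451, Zfp687, Zfp746 and Zfp809. With libraries left out, 3327 kept both and 73 lost the call.

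For exons of 2 to 6 kb, finger-rich members had medians of 0.036 against DMSO and -0.094 against GW3965, and members with 1 to 4 fingers 0.136 against GW3965. Other genes of 5 to 50 CPM had class medians against DMSO of 0.316 under 2 kb, -0.194 at 6 to 8 kb and -0.255 at 8 kb or more, and against GW3965, from the shortest class up, of 0.289, 0.076, -0.071, -0.141 and -0.241. Depth limits members near 5 CPM, whose counts start at 55.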
